A study of Mus musculus with 46 samples.

Results

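The genes described here are the protein-coding genes of the 4 mouse Hox clusters, taken from a RefSeq gene table (GRCm38.p6) as every symbol that reads Hoxa, Hoxb, Hoxc or Hoxd followed by a digit. This gave 39 of 21631 protein-coding genes, with 11 in Hoxa, 10 in Hoxb, 9 in Hoxc and 9 in Hoxd. The data are peak lists from native ChIP-seq, in which chromatin is cut with MNase without cross-linking, of frozen liver. All mice were FVB females, 11 weeks old, on a standard diet. PA mice are labelled hypomorphic Pcca-/- (A138T), a model of propionic acidemia, and wild-type (WT) mice were their controls. Pcca encodes the alpha subunit of the mitochondrial enzyme that consumes propionyl-CoA. Each of 9 antibodies had 2 PA and 2 WT libraries, which gives 36 libraries for the comparisons. Preparations labelled A were used for H3K9ac, H3K27ac, H4K16ac and H4K16bu, and preparations labelled B for H4K5ac, H4K5pr, H4K12ac, H4K12pr and H4K16pr (Thermo antibody), where ac, pr and bu stand for acetylation, propionylation and butyrylation. Letter and antibody therefore cannot be told apart. The 2 libraries of a second, in-house antibody to H4K16pr were from WT alone and entered no comparison.

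Hox genes encode homeodomain transcription factors that give cells their position along the body axis of the embryo. Within a cluster the genes lie in the order in which they act, from anterior genes (low numbers) to posterior genes (high numbers), and genes of the same number in different clusters are called paralogs. Polycomb complexes keep clusters silent in cells that do not use them, retinoic acid opens them from the anterior end, and adult cells often keep the pattern of their embryonic origin. Acetylated histones mark active promoters and enhancers, and propionyl and butyryl groups are longer acyl groups on the same lysines.

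The 36 libraries held between 32358 and 70886 peaks, which covered 47.8 to 165 Mb. Read depth is unknown, so a gene without a peak is described as not listed. Peaks covered between 39.4% and 86.0% of the hepatocyte marker windows in the mean of each antibody, against at most 1.12% of the kidney and gut marker windows. Among the cholangiocyte markers Krt19, Krt7, Epcam and Cftr were at 0 in every library, and so were the lymphocyte markers Cd3e and Cd8a. The series calls replicates biological, and no label tells if preparations A and B with the same number share a liver; if they do, p-values over 8 preparations are too small. In whole liver, a mark in fewer cells and a shorter marked region per cell cannot be told apart.

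Hox promoters are shown first because the peaks divided them. Of the 24 promoters of 22 Hox genes in the RefSeq table (GRCm38.p6, 250 bases before to 50 after the start), 4 had a base in a peak in at least 1 library and 20 had none. The promoters of Hoxa2, Hoxa5 and Hoxb4 had a covered base in all 4 H3K9ac libraries, and that of Hoxd4, a paralog of Hoxb4, had none in any library. Hoxa2 specifies the anterior hindbrain and the branchial region, Hoxa5 acts in lung and skeletal patterning, and Hoxb4 and Hoxd4 act at the hindbrain to neck level. Capitals mark matches on either strand to TGATTNAT, a consensus of PBX-HOX pairs, or to AGGTCA, the half-site of nuclear receptors such as the retinoic acid receptors.
Hoxa2 promoter, chr6:52164782-52165081, minus strand: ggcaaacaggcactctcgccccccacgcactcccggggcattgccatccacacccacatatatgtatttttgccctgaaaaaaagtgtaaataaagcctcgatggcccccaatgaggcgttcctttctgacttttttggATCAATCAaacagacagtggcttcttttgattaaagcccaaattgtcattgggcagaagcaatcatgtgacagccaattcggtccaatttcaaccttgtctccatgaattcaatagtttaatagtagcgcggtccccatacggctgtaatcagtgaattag
Hoxa5 promoter, chr6:52204538-52204837, minus strand: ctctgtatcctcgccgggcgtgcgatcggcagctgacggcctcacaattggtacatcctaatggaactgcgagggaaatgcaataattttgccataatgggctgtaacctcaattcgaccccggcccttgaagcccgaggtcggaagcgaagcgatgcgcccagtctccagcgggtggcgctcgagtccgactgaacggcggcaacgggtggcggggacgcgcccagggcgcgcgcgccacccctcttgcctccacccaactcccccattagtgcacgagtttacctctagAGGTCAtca
Hoxb4 promoter, chr11:96318017-96318316, plus strand: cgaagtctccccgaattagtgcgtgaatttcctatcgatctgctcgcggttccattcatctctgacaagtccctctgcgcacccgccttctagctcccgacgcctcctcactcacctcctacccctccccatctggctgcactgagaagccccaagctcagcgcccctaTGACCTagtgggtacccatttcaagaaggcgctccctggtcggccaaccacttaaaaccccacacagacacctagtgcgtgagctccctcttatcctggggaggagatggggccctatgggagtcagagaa
Hoxd4 promoter, chr2:74721728-74722027, plus strand: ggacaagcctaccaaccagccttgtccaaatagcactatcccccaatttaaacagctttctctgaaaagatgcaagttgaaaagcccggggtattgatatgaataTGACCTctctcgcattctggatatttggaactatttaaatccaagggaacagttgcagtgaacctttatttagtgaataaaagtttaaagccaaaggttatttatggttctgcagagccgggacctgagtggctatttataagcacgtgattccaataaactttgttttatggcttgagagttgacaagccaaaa

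The Hoxa2 promoter held a PBX-HOX match and was touched by peaks in 16 of 36 libraries. The other Hox promoter with such a match, that of Hoxd11 at chr2:74682073-74682372, was touched in 0 of 36. The Hoxb4 promoter was touched in 10 libraries and the Hoxa5 promoter in 4, all of them H3K9ac. TGATTNAT occurred in 2 of 24 Hox promoters (8.33%), against 3.22% of all 32851 promoters in the table, and AGGTCA in 7 (29.2%), against 16.3%. No match to one motif overlapped a match to the other in the Hox promoters. AGGTCA was present in the covered Hoxa5 and Hoxb4 promoters and in the uncovered Hoxd4 promoter. The median number of CpG pairs was 17 in covered and 14 in uncovered Hox promoters, and the CpG-richest, that of Hoxa13 with 45, was not listed in any library.

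A gene window is the gene body plus 2.5 kb on each side. Peaks touched the windows of 19 of 39 Hox genes in at least 1 of the 36 libraries. At least 18 of 36 libraries touched 12 Hox windows (30.8%), against 14173 of all protein-coding windows (65.5%). No library touched 20 Hox windows (51.3%), against 23.9% of all windows. Marked genes were the anterior and middle genes of Hoxa and Hoxb. In Hoxb, Hoxb3 was touched in 35 libraries, Hoxb5 and Hoxb6 in 29, Hoxb2 in 28, Hoxb4 in 27, and Hoxb7 and Hoxb8 in 18. In Hoxa, Hoxa2 was touched in 32 libraries, Hoxa3 in 31, Hoxa5 and Hoxa6 in 20, and Hoxa4 and Hoxa9 in 17. Outside these clusters the counts were 14 for Hoxc6, 4 for Hoxd12 and Hoxd13, and 1 for Hoxc9 and Hoxd9.

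Genes of paralog groups 10 to 13 were mostly bare. None of the 3 genes of paralog group 10 and none of the 3 of group 11 had a covered base, while 1 of 2 in group 12 (Hoxd12) and 1 of 4 in group 13 (Hoxd13) did, from 1 shared site. Hoxa7 and Hoxb9, which lie next to marked genes, and Hoxb1 were also not listed in any library. The windows of 30 of 39 Hox genes overlap that of another Hox gene, so members are not independent: Hoxa3 alone shares bases with Hoxa2, Hoxa4, Hoxa5, Hoxa6 and Hoxa7. In 4 of the 19 touched genes (Hoxa6, Hoxa9, Hoxd12 and Hoxd13) every covered base lay outside the gene body. The count of 12 was 8 with gene bodies alone, 13 with 5 kb on each side and 3 when every library was cut to the 32358 widest peaks.

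**Figure D1:**
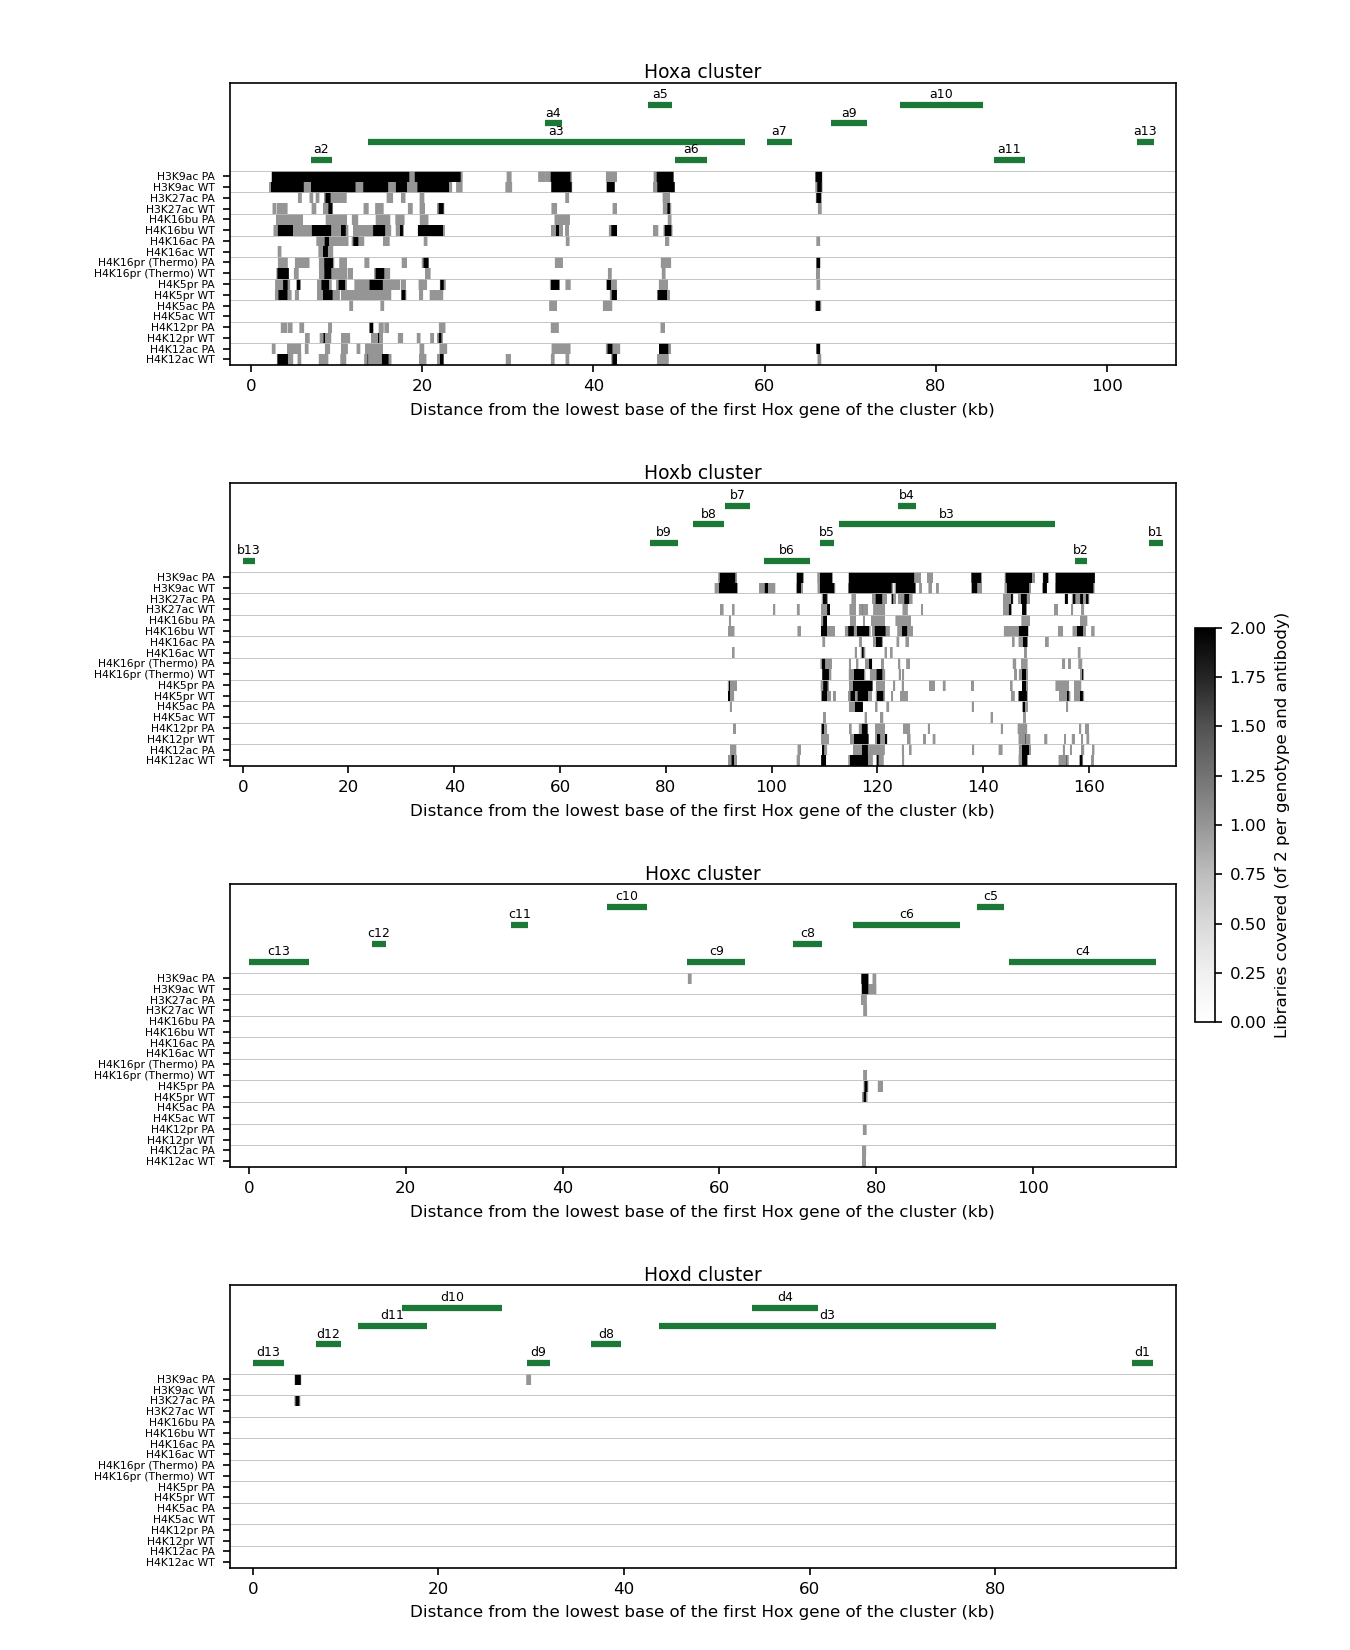
Map of the 4 clusters, with distance from the lowest base of the first Hox gene of each cluster in kb on the x axis, genes as green bars and 1 row per antibody and genotype, PA above WT. Grey marks bases covered in 1 of 2 libraries and black in 2 of 2, averaged over 100-base steps. Marks lie mostly in the anterior Hoxa and middle to anterior Hoxb genes and are widest for H3K9ac. Hoxc has 1 repeated site at Hoxc6 and Hoxd 1 site between Hoxd13 and Hoxd12.

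Whole clusters gave the same division. A covered base was present in 36 of 36 libraries in Hoxb (chr11:96191816-96370754), 33 in Hoxa (chr6:52152867-52263380), 14 in Hoxc (chr15:102918631-103039356) and 4 in Hoxd (chr2:74665725-74767642). The median covered length was 9192 bp in Hoxb and 6024 bp in Hoxa, and the highest was 39102 bp and 29395 bp. Hoxc reached at most 1911 bp and Hoxd at most 1127 bp. In Hoxa the union of all peaks ended 41.3 kb before the posterior end of the cluster. In Hoxb 91.5 kb at the Hoxb13 and Hoxb9 end and 15.5 kb at the Hoxb1 end were free of peaks.

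Some short stretches recurred across antibodies. A stretch of 180 bp in Hoxb3 (chr11:96341816-96341995) was covered in 30 of 36 libraries and one of 118 bp in Hoxb5 in 28. A stretch of 16 bp in Hoxa2 (chr6:52164302-52164317) was covered in 26 libraries. In Hoxc the most shared stretch lay in Hoxc6 and was covered in 14 libraries, which were H3K9ac in 4 of 4 and H4K5pr in 4 of 4, with the rest spread over other marks. Peaks were present further out from the clusters. Of the 24 nearest protein-coding neighbours, Evx2 (6.7 kb away), Evx1 (52.6 kb) and Calcoco2 (69.8 kb) had no base in any library. Ttll6 (28.1 kb) had one in 14 of 36. Genes such as Mtx2 (60.7 kb), Skap1 (96.3 kb), Skap2 (143 kb) and Hibadh (285 kb) had one in 36 of 36. Evx1 and Evx2 are homeobox genes that adjoin the posterior ends of Hoxa and Hoxd.

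The clusters also hold micro-RNA genes, which are shown by their mature sequences because 2 families run through several clusters as the Hox genes do. Hairpins were taken without flanks. The hairpin of Mir10a, next to Hoxb4, had a covered base in 4 of 36 libraries (2 of H3K9ac, 1 of H3K27ac and 1 of H4K5pr), and that of Mir10b in Hoxd in none. Both give a mature 5p strand with the seed ACCCUGU, shown in capitals, and the Mir196 hairpins of Hoxa, Hoxb and Hoxc, which share another seed, had no covered base in any library.
miR-10a-5p: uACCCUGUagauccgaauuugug
miR-10b-5p: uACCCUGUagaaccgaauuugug
miR-196a-5p: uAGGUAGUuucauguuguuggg
miR-196b-5p: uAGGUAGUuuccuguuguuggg

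H3K9ac stood out among the antibodies in the clusters. H3K9ac peaks covered 66.3 ± 4.42 kb of the 4 clusters together (SD, n = 4 libraries), against 24.2 ± 3.99 kb for H4K5pr, 23.3 ± 17.2 kb for H4K16bu, 18.5 ± 5.55 kb for H4K12ac, 15.8 ± 3.72 kb for H3K27ac and 3.77 ± 2.94 kb for H4K5ac. Each Mb covered genome-wide held 570 ± 24.6 bp of Hox cluster for H3K9ac, 216 ± 164 bp for H4K16bu, 208 ± 49.2 bp for H4K5pr, 102.8 ± 19.7 bp for H3K27ac and 26.3 ± 17.8 bp for H4K5ac. Values for the other antibodies lay between those of H4K5pr and H4K5ac. H3K9ac covered fewer bases genome-wide (mean 116 Mb) than H3K27ac (153 Mb) or H4K5ac (133 Mb).

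In every H3K9ac library the Hoxa cluster carried more bases than in every library of other antibodies. The PA libraries had 29395 and 28301 bp of Hoxa, and the WT libraries 28796 and 23537 bp. In Hoxb the PA libraries had 36870 and 36445 bp, and the WT libraries 39102 and 35442 bp. The longest single Hoxa peak of H3K9ac measured 22276 bp in PA replicate 1 and 16103 bp in PA replicate 2, against 21322 bp in WT replicate 1 and 5202 bp in WT replicate 2. Bases covered in 4 of 4 H3K9ac libraries came to 21359 bp in Hoxa in 8 stretches, 30631 bp in Hoxb in 9 and 800 bp in Hoxc, at Hoxc6 (chr15:102999135-102999934). For every other antibody, such bases amounted to at most 3914 bp in a cluster (H4K5pr in Hoxb).

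**Figure D2:**
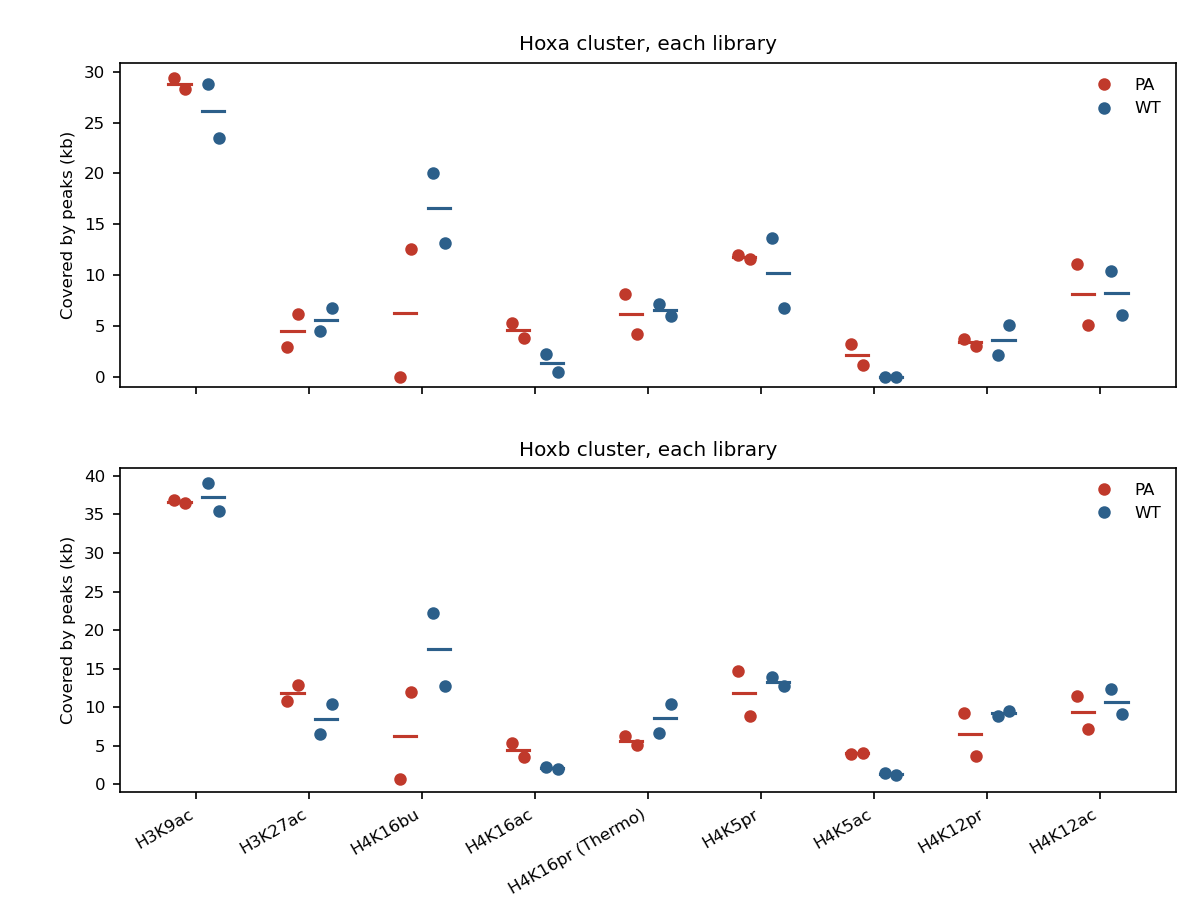
Covered length in kb (y axis) of the Hoxa and Hoxb clusters in each library, by antibody (x axis), with PA left of WT and the mean of 2 libraries as a bar. H3K9ac lies above 23 kb in Hoxa and 35 kb in Hoxb in all 4 libraries, and the H4K16bu library of PA replicate 1 lies at 0 kb in Hoxa.

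Single genes showed the same width of H3K9ac. It covered 100% of the Hoxa2 window in both PA libraries and 100% and 88.2% in the WT libraries. It covered 82.1% and 82.7% of the Hoxb2 window in PA libraries and 82.0% and 78.8% in WT libraries. It covered 79.3% and 72.1% of Hoxb4 in PA libraries and 60.6% and 69.2% in WT libraries. The genotypes overlapped in Hoxa2, and PA lay above WT in Hoxb2, by less than 1 point between the nearest libraries, and in Hoxb4. Hoxb3, which has the most libraries, was covered at 57.3% and 55.2% in PA libraries and at 53.3% and 52.4% in WT libraries. Hoxc6 had far less, 5.57% and 7.56% in PA libraries and 9.90% and 4.86% in WT libraries, and the genotypes overlapped. PA also lay above WT in Hoxb3, Hoxa4, Hoxa9, Hoxd12 and Hoxd13. WT lay above PA in Hoxb6 (20.0 to 37.6% against 16.5 to 17.4%) and Hoxb7 (37.7 to 53.7% against 30.8 to 36.9%). The same held for Hoxb8 (33.0 to 38.7% against 26.9 to 32.3%). Of all genes tested for H3K9ac, 29.9% had PA above without overlap and 13.6% had WT above.

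The difference from H3K27ac was fitted with limma for every gene, within the 4 preparations labelled A, a comparison added after the values were seen. The mean difference was above 0 in all 17 Hox genes tested, with a median of 29.8 percentage points of the window, against -0.68 over 15621 genes. With Benjamini-Hochberg adjustment, H3K9ac was wider in 10 of the 17 and narrower in 0, where 5.94% and 13.3% of all genes tested were called wider and narrower. Among them were Hoxa3, Hoxa4, Hoxa5, Hoxa6, Hoxb3, Hoxb4, Hoxb5, Hoxb7 and Hoxb8. Hoxb3, an anterior gene, had 54.5 ± 2.15% covered by H3K9ac and 16.1 ± 4.60% by H3K27ac (SD, n = 4 each, difference 38.5 ± 2.83 SE, limma adjusted p = 0.0315), higher in 4 of 4 preparations. Hoxb8, at the edge of the marked stretch, had 32.7 ± 4.80% covered by H3K9ac and 2.88 ± 3.46% by H3K27ac (difference 29.8 ± 1.60 SE, limma adjusted p = 0.0315), also in 4 of 4. Its neighbour Hoxb7 had 39.8 ± 9.80% covered by H3K9ac and 3.29 ± 3.96% by H3K27ac (limma adjusted p = 0.0316). Hoxb4 had 70.3 ± 7.70% covered by H3K9ac and 19.9 ± 15.9% by H3K27ac (limma adjusted p = 0.0423), and Hoxb5 had 37.7 ± 4.95% and 13.5 ± 7.12% (limma adjusted p = 0.0372).

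In Hoxa the called genes had H3K27ac means under 8%. Hoxa3, which patterns the pharyngeal arches, had 36.9 ± 4.45% covered by H3K9ac and 5.07 ± 2.47% by H3K27ac (limma adjusted p = 0.0315). Hoxa4 had 39.7 ± 6.39% covered by H3K9ac and 4.20 ± 4.96% by H3K27ac (limma adjusted p = 0.0316). Hoxa5 had 28.3 ± 3.17% and 6.93 ± 5.05% (limma adjusted p = 0.0493), and Hoxa6, whose covered bases lie toward Hoxa5, had 24.8 ± 2.34% and 6.16 ± 4.49% (limma adjusted p = 0.0468). In 14 of the 17 Hox genes tested, all 4 H3K9ac libraries lay above all 4 H3K27ac libraries, against 10.5% of all genes tested. These 14 include the 10 called, which were chosen on the same values.

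Hoxa2 had the largest mean difference, 97.0 ± 5.90% for H3K9ac against 23.1 ± 16.8% for H3K27ac, and was not called (limma adjusted p = 0.521); the trend fitted to the mean gave it an SE of 74.7. Hoxb2 had 81.4 ± 1.76% for H3K9ac and 24.9 ± 20.2% for H3K27ac (limma adjusted p = 0.0524). Leaving out any of the 4 preparations, or adding the replicate number as a block, left 0 Hox genes and 0 of all genes called, and the 10 differences stayed above 0 without any 1 preparation (Hoxa6, 15.2 to 22.0 points; Hoxb4, 43.2 to 57.6 points). Markers of stellate cells and fibroblasts moved with this result: all 7 (Lrat, Reln, Pdgfrb, Des, Col1a1, Hand2 and Lhx2) were touched in 4 of 4 H3K9ac libraries, with a mean of 25.2% of the window (20.5 to 28.8% by library), against at most 1.31% in any other antibody's mean. Their defining gene Lrat was among those touched. The part of these cells in the result was not tested. The endothelial markers averaged 30.6% for H3K9ac and 21.8% for H3K27ac, the Kupffer cell markers 26.8% and 13.7%, and the hepatocyte markers 77.3% and 73.2%.

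**Figure D3:**
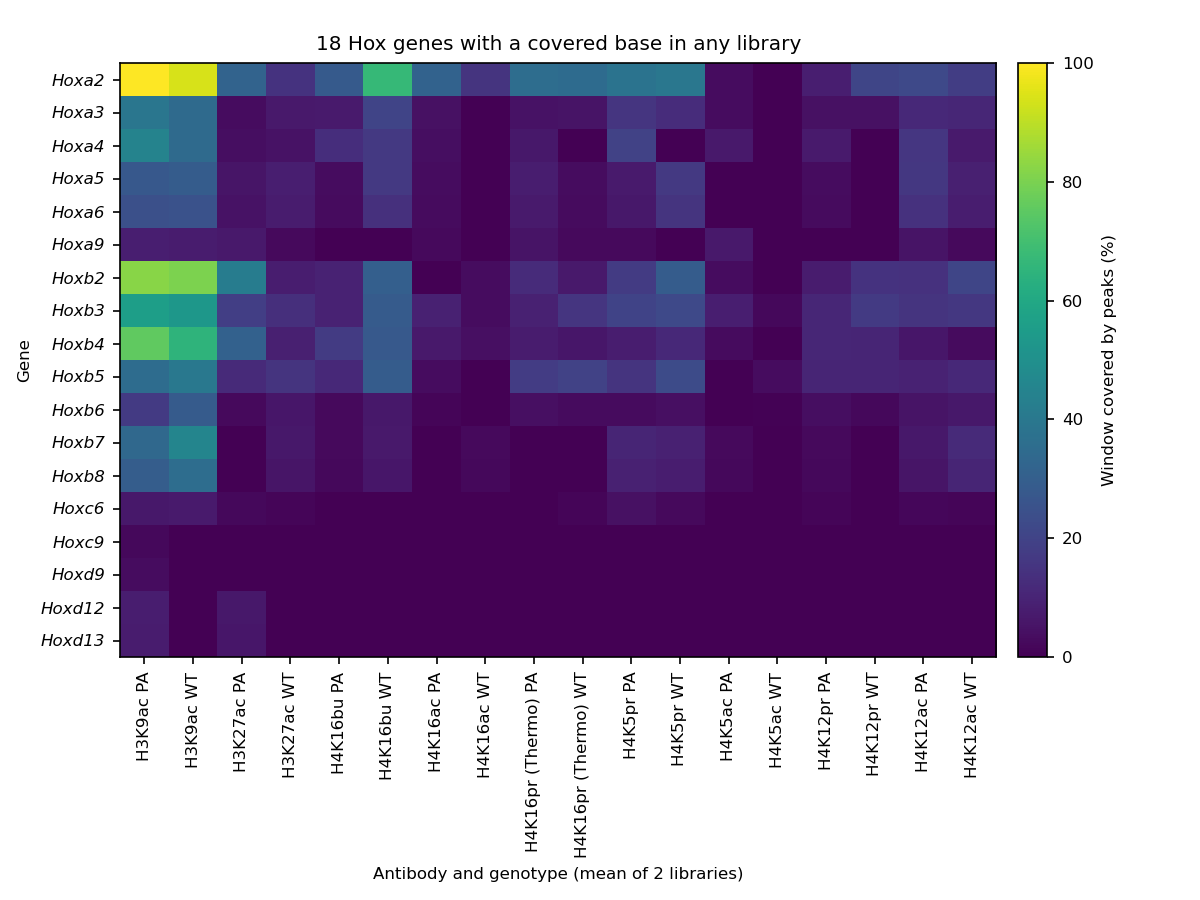
Percent of each window covered by peaks (colour), for 18 Hox genes with a covered base in any library (y axis), by antibody and genotype (x axis, mean of 2 libraries, PA left of WT). H3K9ac gives the highest values in Hoxa2 to Hoxb8, and H4K5ac has the lowest mean over the 39 genes, 0.588% against 16.4% for H3K9ac.

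Acyl marks were compared with acetylation at the same lysine in the preparations that held both. H4K5pr was the wider mark in 14 of 15 Hox genes tested, with a median difference of 10.6 points, against 0.07 over 15015 genes. H4K5ac was nearly absent from Hoxa: the PA libraries had 3221 and 1125 bp and both WT libraries 0 bp, while H4K5pr had 11945 and 11609 bp in PA and 13681 and 6814 bp in WT. Hoxa2, for example, had 46.6% and 29.4% covered by H4K5pr in PA libraries and 46.0% and 33.5% in WT libraries, and H4K5ac reached 6.74% in 1 PA library and 0 in the other 3. No gene of the 15015 passed the limma test after adjustment (background 0%; 9.72% of genes were wider and 11.3% narrower at an unadjusted p under 0.05). Among Hox genes 12 of 15 were wider at an unadjusted p under 0.05 and 0 narrower, and the smallest adjusted p in a Hox gene was 0.151 (limma). Of these 12, 4 were listed for H4K5pr alone and so entered the fit through it. Means of some other lists lay the same way: the mean of H4K5pr was higher in 6 of 6 hepatocyte markers, with a median difference of 21.8 points, and in Sox9, by 12.98 points. Not all lists did. It was higher in 3 of 9 TALE cofactors of Hox proteins (median difference -0.66 points) and 0 of 2 other Antennapedia-class homeobox genes. Among the neighbours it was higher in 11 of 21 (median difference 0.16 points).

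H4K16bu covered more than H4K16ac in all 13 Hox genes tested, with a median difference of 12.96 points, against 1.36 over 14213 genes. No gene passed the limma test after adjustment (background 0%), and 6 of 13 Hox genes were wider and 0 narrower at an unadjusted p under 0.05, against 14.2% and 1.82% of all genes. The lowest adjusted p in a Hox gene was 0.308. The mean of H4K16bu was also higher in 6 of 6 hepatocyte markers (median difference 15.4 points), 10 of 10 upstream activators and retinoic acid genes (median 9.76 points) and 6 of 6 endothelial markers (median 8.35 points). H4K16bu was uneven among libraries: Hoxa3 had 0% and 14.2% covered in PA libraries and 24.5% and 16.5% in WT libraries. The H4K16bu library of PA replicate 1 had 0 bp of Hoxa and 629 bp of Hoxb, although it held 44068 peaks over 98.5 Mb, close to the 98.5 Mb of WT replicate 2, and covered 50.3% of the hepatocyte windows, against 65.5% in PA replicate 2 and 49.1% and 54.2% in WT. It covered 11.7% of the endothelial windows, against 24.9% in PA replicate 2 and 25.6% and 23.4% in WT. The stellate windows stood at 0.0997% in it and 0.0565% in PA replicate 2, against 3.55% and 0.249% in WT. The part of these cells in the H4K16bu values was not tested.

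At H4K12 most means lay the other way. H4K12pr was the narrower mark in 14 of 15 Hox genes, with a median difference of -6.46 points, against 0.02 over 15179 genes. No gene passed the limma test after adjustment (background 0%), and 0 of 15 Hox genes were wider and 1 narrower at an unadjusted p under 0.05, against 12.1% and 6.26% of all genes. The 1 was Hoxa9, which was listed for H4K12ac alone. The hepatocyte markers lay on the other side, with a median difference of 12.1 points and a higher mean of H4K12pr in 6 of 6. Hoxa3 had 4.90% and 4.13% covered by H4K12pr in PA libraries and 2.04% and 7.05% in WT libraries, while H4K12ac covered 18.98% and 3.75% in PA libraries and 14.1% and 7.22% in WT libraries. These acyl and acetyl libraries come from the same 4 preparations, and the differences between lysines were not tested.

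**Figure D4:**
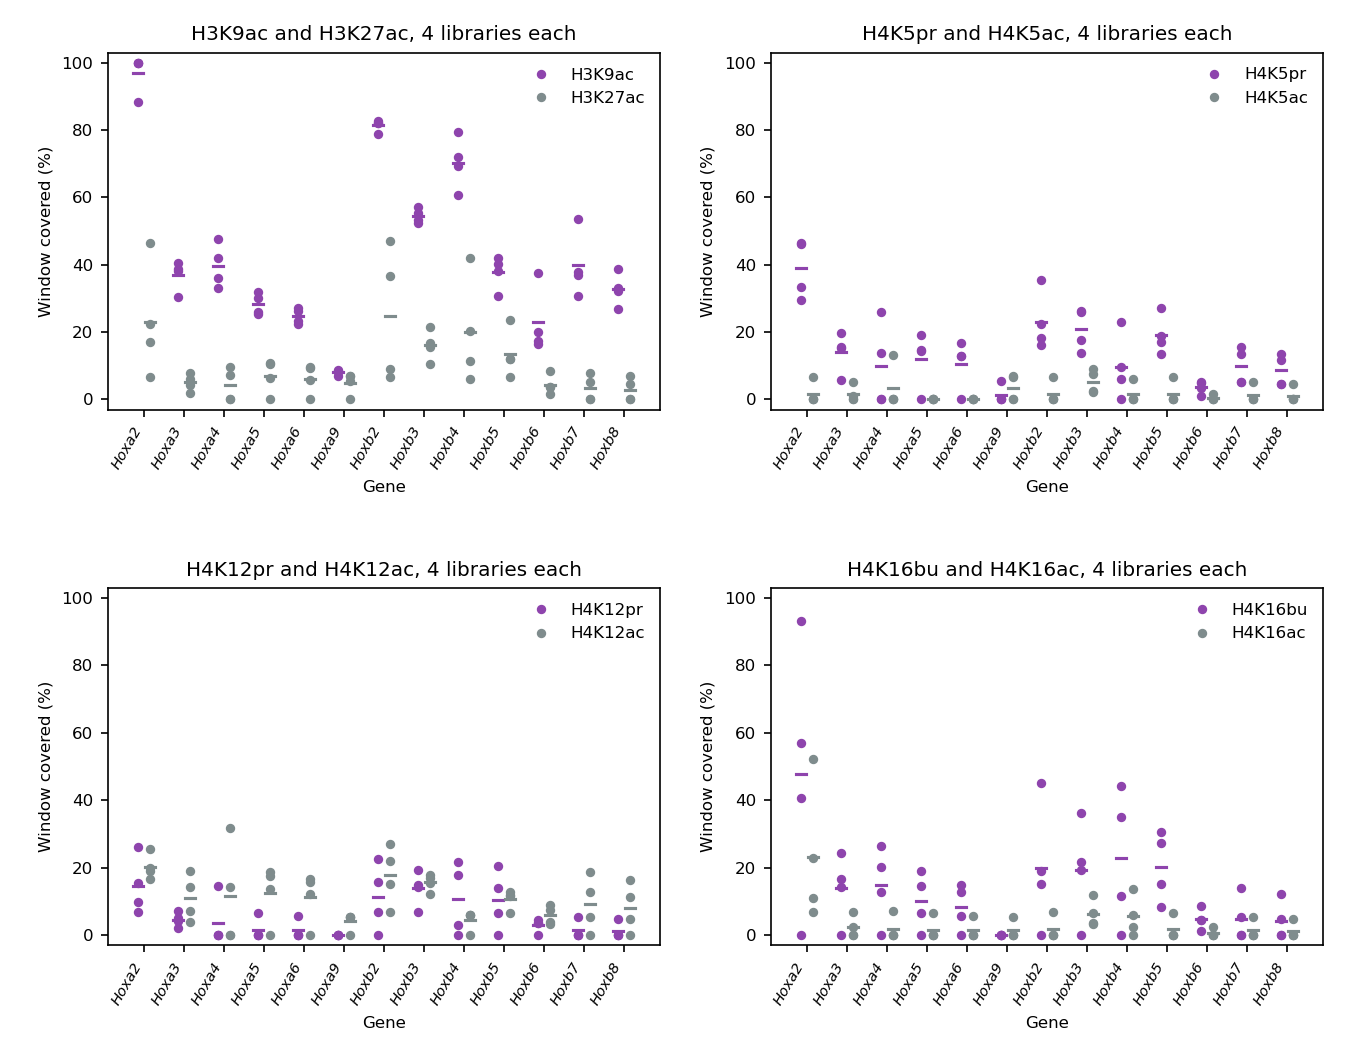
Percent of the window covered (y axis) in each of 4 libraries for Hoxa and Hoxb genes with a covered base (x axis), for 4 pairs of marks, with bars at means. Among the genes shown, H3K9ac exceeds H3K27ac in every gene mean, and H4K5pr exceeds H4K5ac in every gene mean except Hoxa9. H4K12pr lies below H4K12ac in every gene mean except Hoxb4. H4K16bu exceeds H4K16ac in every gene mean except Hoxa9, which did not enter that fit.

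The genotypes were then compared over all 9 antibodies, as the mean percent of the window covered in each of 8 preparations. For whole clusters, values are mean ± SD (n = 4 preparations each), tested by exact two-sided permutation within preparation letters. Peaks covered 7.87 ± 2.92% of Hoxa in PA and 8.22 ± 3.73% in WT (exact permutation p = 0.833). They covered 6.22 ± 2.56% of Hoxb in PA and 6.97 ± 2.55% in WT (exact permutation p = 0.333). In Hoxc they covered 0.31 ± 0.10% in PA and 0.25 ± 0.13% in WT (exact permutation p = 0.278). The SDs here, and of pooled gene values below, include the difference between letters A and B, which hold different antibodies. In Hoxb, PA preparations stood at 7.49 and 9.04% in A and 5.10 and 3.24% in B. WT preparations stood at 9.78 and 8.47% in A and 4.82 and 4.80% in B. Hoxd had 0.17 ± 0.20% in PA and 0% in all 4 WT preparations (exact permutation p = 0.333). The smallest p this design allows is 0.0556. For Hoxd the smallest is 0.333, because all preparations labelled B were at 0 and permuting them changes nothing. The test therefore could not tell the genotypes apart in Hoxd. The Hoxa and Hoxb differences were above 0 without the H4K16bu antibody (0.997 and 0.149 points).

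By gene, 17 of the 39 Hox genes passed the filter of a covered base in 2 libraries, Hoxd12 and Hoxd13 through PA libraries alone. They were tested with limma (genotype and preparation letter) and 1 of them was called higher and 0 lower in PA, where 18.3% of all 16082 genes tested were called higher and 0.721% lower. The median difference was -0.45 points over the 17 Hox genes, of which 6 had a higher and 11 a lower mean in PA, against 1.74 points over all genes tested. The called gene was Hoxa9, a posterior gene that is also known for its role in blood stem cells. Its window was covered at 5.21, 3.52, 3.84 and 4.58% in PA preparations 1A, 1B, 2A and 2B, and at 3.38, 2.16, 1.71 and 0% in the WT preparations of the same names, so the genotypes did not overlap, as in 21% of all genes tested with PA above. The difference was 2.48 ± 0.64 (SE) points (limma adjusted p = 0.0383).

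All of the covered bases of Hoxa9 lay outside the gene. The stretch covered in 4 of 4 H3K9ac libraries (chr6:52221397-52221939) lay 1158 bp away from it. A base of the window was covered in 12 of 18 PA and 5 of 18 WT libraries. Over the whole window, H3K27ac covered 631 and 645 bp in PA and 500 and 0 bp in WT. The H4K5ac libraries had 633 and 625 bp in PA and 0 bp in both WT. H3K9ac had 801 and 781 bp in PA and 754 and 636 bp in WT. The call was lost when A and B of a number were averaged (limma adjusted p = 0.106) and in 7 of the 8 fits that left out a preparation (0.0519 to 0.105).

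Hoxa4 had the largest difference above 0, with 13.8 ± 6.46% in PA and 7.71 ± 7.63% in WT (6.05 points, limma adjusted p = 0.193), and Hoxb4 had 19.9 ± 15.5% in PA and 16.3 ± 12.3% in WT (3.64 points, limma adjusted p = 0.373). On the lower side, Hoxb5 had 13.1 ± 3.79% in PA and 17.3 ± 5.31% in WT (-4.21 points, limma adjusted p = 0.160). Hoxb7 had 6.76 ± 4.03% in PA and 9.86 ± 7.06% in WT (-3.10 points, limma adjusted p = 0.325). With a window of 5 kb on each side, Hoxb5 was called lower in PA (-6.96 points, limma adjusted p = 0.0423).

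**Figure D5:**
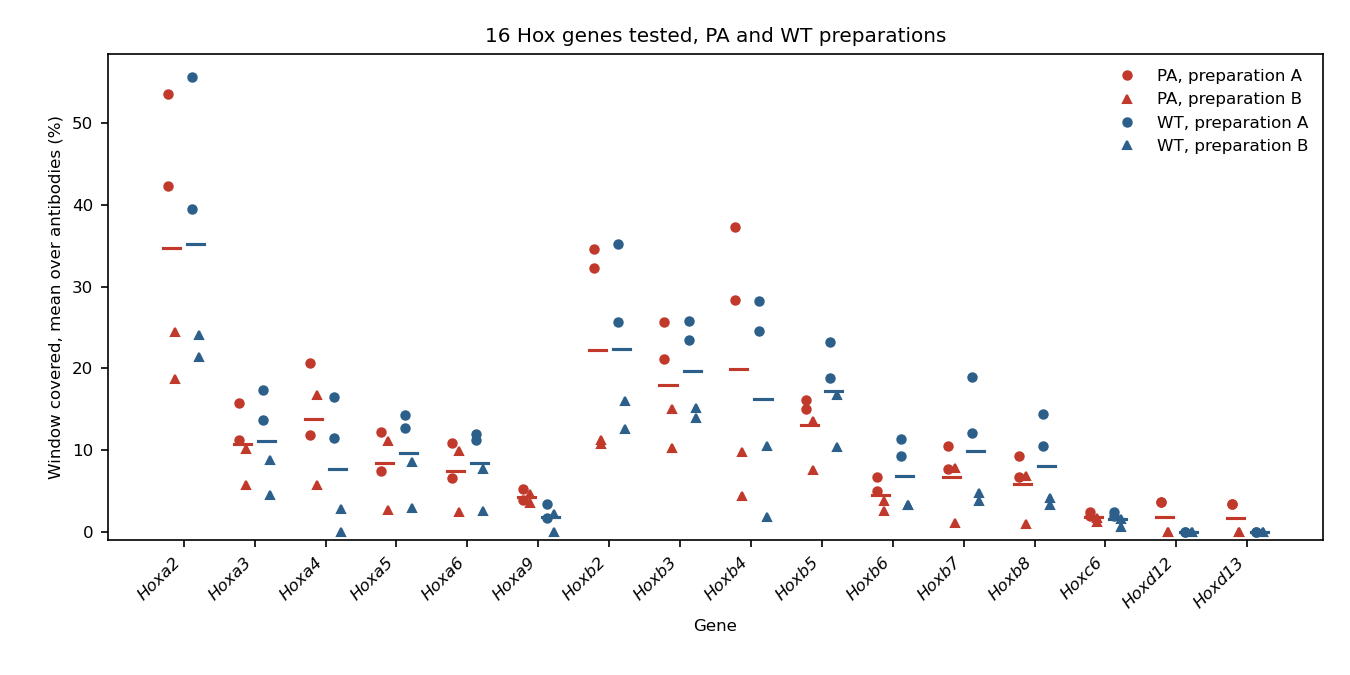
Percent of the window covered, as the mean over antibodies, in each of the 4 PA (left) and 4 WT preparations for 16 of the 17 Hox genes tested, with circles for preparations A, triangles for B and bars at means. PA and WT values overlap in most genes and are apart in Hoxa9.

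Within single antibodies, 2 PA against 2 WT libraries, limma called 0 of all genes with any of the 9 antibodies (background 0%). At an unadjusted p under 0.05, 6.74% (H4K12pr) to 29.3% (H4K16ac) of all genes were higher in PA and 0.182% (H4K16ac) to 3.54% (H3K9ac) lower. For H3K9ac 3 of 17 Hox genes tested were higher in PA at this threshold and 0 lower, against 7.21% and 3.54% of all genes. For H3K27ac 3 of 17 were higher and 3 lower, against 12.8% and 1.54%. For H4K16bu 0 of 13 were higher and 3 lower, against 9.89% and 2.86%. The 3 were Hoxb5, Hoxa5 and Hoxa6, and the windows of Hoxa5 and Hoxa6 overlap. The H4K16bu library of PA replicate 1 had 0 bp of Hoxa and 629 bp of Hoxb. Numbers tested were as low as 4 for H4K16ac and 3 for H4K5ac, with 2 higher in each, against 29.3% and 13.2% of all genes, and 1 of each 2 was listed in PA alone. The Hox counts do not stand for separate events: 2 of the 3 higher for H3K9ac, and 2 of the 3 higher and 2 of the 3 lower for H3K27ac, are neighbours that share peaks (Hoxd12 with Hoxd13, Hoxb7 with Hoxb8) and were listed in 1 genotype only. Hoxd12 and Hoxd13, the posterior Hoxd genes of limbs and genital tract, share 1 site of 383 bp (chr2:74672773-74673155) that lies 1170 bp from Hoxd13 and 1858 bp from Hoxd12. It was covered in the 4 PA libraries of H3K9ac and H3K27ac and in none of the other 32 libraries. The H3K9ac peaks gave 8.15% of the Hoxd12 window in both PA libraries and 0% in both WT libraries. The H3K27ac peaks gave 6.50% in both PA libraries and 0% in both WT libraries. The values correspond to peaks of 627 bp for H3K9ac and 500 bp for H3K27ac, and 500 bp is the shortest region in the lists. These genes entered the fits through their PA libraries alone, so no p is given for them, and the same holds for Hoxa4 in H4K5pr. Hoxa4 had 25.8% and 13.9% covered by H4K5pr in PA libraries and 0% in both WT libraries. Hoxb5 had 8.27% and 15.0% covered by H4K16bu in PA libraries and 30.5% and 27.4% in WT libraries (limma adjusted p = 0.296). In H3K27ac, Hoxb2 had 47.2% and 36.8% covered in PA libraries and 6.77% and 8.91% in WT libraries (limma adjusted p = 0.236).

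Over whole clusters the PA and WT libraries of an antibody did not overlap in 3 of 9 antibodies in Hoxa, 5 of 9 in Hoxb, 0 of 9 in Hoxc and 2 of 9 in Hoxd. Over all gene windows tested, PA lay above WT without overlap in 29.9% (H3K9ac) to 67.2% (H4K16ac), and WT above PA in 0.878% (H4K16ac) to 13.6% (H3K9ac). For H3K27ac, H4K12ac and H4K12pr, PA lay above in 39.7%, 36.1% and 31.4% and WT above in 7.58%, 7.88% and 7.49%, and for H4K5ac PA lay above in 41.6%. An exact permutation test of 2 against 2 libraries cannot go below p = 0.333. In Hoxa, H4K16ac had 5340 and 3794 bp in PA and 2202 and 500 bp in WT. In Hoxb, H4K5ac had 3982 and 4098 bp in PA and 1500 and 1145 bp in WT, H4K16ac 5395 and 3483 bp in PA and 2179 and 2000 bp in WT, and H3K27ac 10741 and 12867 bp in PA and 6531 and 10452 bp in WT. H4K16bu ran the other way, with 629 and 11933 bp in PA and 22219 and 12749 bp in WT, and so did H4K16pr, with 6200 and 5154 bp in PA and 6638 and 10442 bp in WT. WT lay above PA without overlap in 9.23% of gene windows for H4K16bu and 2.71% for H4K16pr. Genome-wide coverage moved with genotype too: both PA libraries covered more than both WT libraries for 8 of 9 antibodies. H4K16ac covered 116 and 105 Mb in PA and 74.8 and 47.8 Mb in WT, H4K5ac 155 and 145 Mb in PA and 119 and 113 Mb in WT, and H3K27ac 161 and 165 Mb in PA and 138 and 148 Mb in WT. Its part in the Hox values was not tested.

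The genes of Hox regulators and partners, from lists fixed by name, were covered in most cases. The calls below rest on the 8 preparations: 0 genes of all tested were called when A and B were averaged, and 408 were called higher after quantile normalization, against 2935 without it. Of 9 TALE cofactors, which bind DNA together with Hox proteins, 3 were called higher in PA and 0 lower (limma, background 18.3% and 0.721% as above). Among them, Meis1 had 16.6 ± 1.22% in PA and 8.92 ± 0.34% in WT (limma adjusted p = 0.00496), and Meis2 had 9.22 ± 0.55% in PA and 5.83 ± 0.76% in WT (limma adjusted p = 0.0126). Of 16 Polycomb proteins 4 were called higher and 0 lower (Ezh2, Bmi1, Phc2 and Pcgf2). Of 11 tested upstream activators and retinoic acid genes 3 were called higher and 0 lower (Rarb, Rara and Cdx2), and of the 24 neighbours 21 were tested and 5 called higher. Ezh2, the methyltransferase of Polycomb, had a difference of 2.79 points (limma adjusted p = 0.0102), and Rara, a retinoic acid receptor, had 62.1% covered in PA and 51.8% in WT (limma adjusted p = 0.0378). Of 12 other Antennapedia-class homeobox genes 3 were tested and 1, Meox1, was called higher. Of the marker lists, 1 of 7 stellate genes (Des), 1 of 6 endothelial genes (Stab2) and the 1 cholangiocyte gene tested (Sox9) were called higher, and 0 of 6 hepatocyte, 0 of 5 Kupffer, 0 of 2 lymphocyte and 0 of 2 kidney or gut genes tested were called.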

How the data were processed

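Every list that was deposited gives the regions called enriched in one library (chromosome, start and end, unit base pairs, build GRCm38, also called mm10). It carries no height or significance for a region. The submitters' processing notes name cutadapt 3.5, R 4.1.2, bedtools 2.31.0, HOMER 4.10, SAMtools 1.17 and Bowtie2 2.5.1, without their roles. Read depth and caller settings are not known here. Starts were taken as 0-based, 20 rows on chromosome Y in 18 libraries were dropped, and 8 inputs were not used.

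For each protein-coding gene of the RefSeq table (GRCm38.p6) the percent of its window (gene body plus 2.5 kb on either side) inside peaks was computed in 36 libraries and averaged over the antibodies of a preparation. The 8 preparations entered a linear model by limma 3.58.1 (R 4.3.3) with trend, the preparation letter and no replicate block, and p-values were adjusted by Benjamini-Hochberg over all genes tested, at 0.05. Genes entered a fit when at least 2 of its libraries had a base covered. Marks were paired within preparations. Coverage was computed with Python 3.11.15, numpy 2.4.6 and pandas 2.3.3. The fits were tested on simulated data.

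The members and lists were chosen with earlier results of these data known, and the H3K9ac against H3K27ac comparison was added after the values were seen. Any Hox gene could be named; full values were for those called in a fit, the 3 most covered of each cluster and the 3 with the largest pooled difference in each direction, and for the other lists called members and up to 3 with the smallest p. Single values of some genes that this rule would name are not reported here; counts include them. The alternatives were other windows, base pairs, equal numbers of peaks, quantile normalization, no trend, no filter, replicate blocks, no preparation or genotype term, A and B averaged, and leaving out antibodies, libraries or preparations.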

Additional observations from a re-analysis of the deposited data

Results flagged for a closer look

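The in-house H4K16pr libraries, both from WT, entered no comparison and have no control library of their own kind. The library of replicate 1 covered 1907 bp of Hoxa and 2000 bp of Hoxb, while the library of replicate 2 covered 0 bp of either cluster. None of the 39 sets of 4 preparation values (Hox genes and whole clusters, PA and WT apart) held a value far from the other 3. Each set joins preparations A and B, whose antibodies differ, and some genes share windows. The rate of about 1 in 20 for like and separate values does not apply, so no conclusion is drawn.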

How the results depend on the processing

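The pooled fit called 2935 genes higher in PA. The totals called higher by other fits, whose overlap with these was not counted, were 1688 with gene bodies alone, 408 after quantile normalization (337 lower, against 116), 1263 with equal numbers of peaks, 1889 with no filter, 1819 with no preparation term, 1177 without H4K16ac and 0 (0 lower) with A and B averaged. Leaving out 1 preparation gave 855 to 3767 higher and 66 to 115 lower. The 1 Hox gene called higher, Hoxa9, was not called (0 called) under each of these, with covered base pairs and without trend. With gene bodies alone and with equal numbers of peaks it did not enter the fit, so it could not be called there. Leaving out 1 preparation gave 0 to 1 Hox genes higher. With 5 kb flanks 2 Hox genes were called higher and 1 lower. Hoxb4 was at -0.0155 points after quantile normalization. Deviations of PA and WT with the same replicate number correlated at -0.0166 in A and -0.218 in B. With 2 replicates in each group this cannot decide whether replicate numbers pair the samples. A and B of the same number correlated at 0.0849 in PA and 0.264 in WT, which leaves unknown whether they share a liver. With the replicate block 2579 genes were higher, 119 lower and 1 Hox gene higher; the crossed block, chosen after seeing the data, gave 2734 and 123. Within H4K16pr (Thermo) the replicate block called 106 genes higher and 22 lower.

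For H3K9ac against H3K27ac, gene bodies alone gave 615 genes and 6 Hox genes higher, while the replicate block and each left-out preparation gave 0 higher, 0 lower and 0 Hox genes. H4K16bu against H4K16ac had 3 genes higher with gene bodies alone. The Hoxa difference of -0.354 was 0.997 without H4K16bu, 0.355 without its PA 1A library, both settings chosen after seeing the data, and -1.10 to 0.392 without 1 preparation. The Hoxb difference was 0.149 without H4K16bu. With equal numbers of peaks Hoxc was at -0.0956, Hoxd at 0, and 3 Hox genes were marked in at least 18 libraries. The causes were not tested. Unknown read depth limits every statement on genes not listed.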
